A study of Mus musculus with 15 samples.

Results

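This account covers 42 genes whose transcripts are typical of hepatocytes, measured in endothelial cells sorted from mouse liver. The genes were listed by name, and each probe was taken whose accession maps to a listed gene, so that 54 of the array's probes stood for 42 of the 21173 genes with a symbol. RNA of 15 samples was read on 15 one-colour arrays, 3 for each of 5 populations of endothelial cells (ECs) from adult liver, with no strain, allele or treatment named in the labels. EC-SP and EC-MP came from mice 8 weeks of age, and the labels give the populations only as SP and MP, read here as side population and main population of a dye-efflux sort. The other 9 samples were CD157+CD200+, CD157-CD200+ and CD157-CD200- ECs, sorted by the surface proteins CD157, encoded by Bst1, and CD200, with no age stated. The series asked which genes mark endothelial stem cells, and the transcripts described here are not endothelial markers. The labels speak of 3 independent samples without saying that each was a separate animal, so the p-values measure the spread between these samples.

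Hepatocytes, the parenchymal cells of the liver, secrete most plasma proteins and carry the enzymes of the urea cycle, gluconeogenesis, amino acid breakdown and drug oxidation. The transcripts of these proteins are among the most abundant of the liver. Liver endothelium itself comprises sinusoidal ECs, which line the fenestrated capillaries beside the hepatocytes, and ECs of the portal and central vessels. In bulk RNA of this kind, fewer cells of a type and less RNA per cell cannot be told apart.

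The promoters of 5 members are printed because the results turn on these genes: Alb, Fgb and Serpina1a were lower in both CD200-positive subsets, Itih3 went the other way, and Cyp2e1 was called lower in CD157-CD200+ and not in CD157+CD200+. The sequences are RefSeq promoters of build GRCm38.p6, 250 bases before to 50 after the annotated start, in the direction of transcription. Capitals mark the letters GTTAAT or their reverse complement ATTAAC, a motif known from liver gene promoters. They also mark TATAAA, the letters of a TATA box, at any position. In Itih3 TATAAA lies after the annotated start, so it is marked there as letters only. None of these motifs overlaps another.
Alb: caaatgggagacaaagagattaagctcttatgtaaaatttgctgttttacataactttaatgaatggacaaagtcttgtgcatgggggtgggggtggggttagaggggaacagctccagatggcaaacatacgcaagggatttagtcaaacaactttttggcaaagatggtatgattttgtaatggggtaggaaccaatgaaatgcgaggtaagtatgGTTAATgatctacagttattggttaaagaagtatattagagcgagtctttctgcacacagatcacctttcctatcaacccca
Fgb: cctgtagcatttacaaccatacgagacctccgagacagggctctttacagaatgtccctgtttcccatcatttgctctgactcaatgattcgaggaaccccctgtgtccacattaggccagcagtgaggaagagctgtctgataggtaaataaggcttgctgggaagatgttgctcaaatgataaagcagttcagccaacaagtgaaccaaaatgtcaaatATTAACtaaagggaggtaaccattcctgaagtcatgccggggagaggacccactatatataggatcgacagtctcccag
Serpina1a: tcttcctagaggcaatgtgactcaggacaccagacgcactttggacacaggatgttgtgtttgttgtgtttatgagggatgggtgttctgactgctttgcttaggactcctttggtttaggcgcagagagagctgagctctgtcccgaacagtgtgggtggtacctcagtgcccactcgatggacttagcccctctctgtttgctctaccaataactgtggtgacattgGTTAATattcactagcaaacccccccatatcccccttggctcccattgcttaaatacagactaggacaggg
Itih3: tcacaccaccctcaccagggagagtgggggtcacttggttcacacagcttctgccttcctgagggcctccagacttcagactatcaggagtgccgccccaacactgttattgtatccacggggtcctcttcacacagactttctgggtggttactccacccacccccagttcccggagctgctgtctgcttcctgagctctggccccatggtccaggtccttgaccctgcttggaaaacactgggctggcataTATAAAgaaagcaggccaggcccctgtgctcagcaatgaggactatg
Cyp2e1: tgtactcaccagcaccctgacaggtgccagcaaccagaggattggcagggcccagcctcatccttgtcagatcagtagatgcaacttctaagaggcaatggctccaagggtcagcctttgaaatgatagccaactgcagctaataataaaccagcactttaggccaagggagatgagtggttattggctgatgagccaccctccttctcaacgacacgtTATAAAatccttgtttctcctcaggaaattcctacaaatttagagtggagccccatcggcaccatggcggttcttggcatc
The first lies at chr5:90460620-90460919 on the plus strand, Fgb at chr3:83049814-83050113 on the minus strand, Serpina1a at chr12:103863570-103863869 on the minus strand, Itih3 at chr14:30923538-30923837 on the minus strand and Cyp2e1 at chr7:140763569-140763868 on the plus strand. Of the 42 members, 34 had a RefSeq promoter, and the first listed was counted for the 2 genes with more than 1. GTTAAT was found on either strand in 10 of these 34 (29.4%), against 7.10% of all 32851 promoters of the same length. TATAAA, also on either strand, was found in 11 of 34 (32.4%), or 12 if any listed promoter of a gene counts, against 13.6% of all promoters. The HNF4 core CAAAGTCCA stood in 1 member promoter, that of Cyp3a11 (2.94% against 0.475%), and the C/EBP core TTGCGCAA in 0 of 34 (0.183% of all). The 5 printed promoters do not stand for the rest. Rbp4, Mup3, Apoa1 and Fgg, also called lower in both CD200-positive subsets, had no GTTAAT, whereas Gc and Fga, called lower too, had it. Itih1 and G6pc, called in neither comparison, had it as well. Whether a motif goes with the direction of a difference was not tested. These are letter matches only, taken at any position of the sequence, and say nothing of binding or of a working TATA box.

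Levels are log2 processed Cy3 signals relative to the 75th percentile of their own array, for replicates 1 to 3 in that order. A level of 0 is thus the array's 75th percentile, and levels of different probes are not compared. The image software called 57.3% to 69.4% of spots well above background per array, and the 75th percentile lay between 157 and 297 intensity units. All 12 general endothelial markers were well above background on all 15 arrays, among them Pecam1 and Cdh5. Endothelial transcripts were thus present in each sample, which does not measure its purity. Bst1 and Cd200 followed the sorts: Bst1 differed by 5.73 ± 0.25 and Cd200 by 8.84 ± 0.16 between CD157+CD200+ and CD157-CD200- (limma, adjusted p = 5.51e-07 and 7.78e-09).

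Hepatocyte transcripts were measurable in all 5 populations. Of the 42 members, 17 were well above background on all 15 arrays, 23 on some and 2, Tdo2 and Cyp1a2, on none. These 2 encode tryptophan dioxygenase, the entry step of the kynurenine pathway, and a pericentral drug-metabolising enzyme. The number of members well above background on all 3 arrays of a group was 19 in EC-SP, 24 in EC-MP, 26 in CD157+CD200+, 26 in CD157-CD200+ and 36 in CD157-CD200-. Members with no probe above background on any array of the group numbered 12, 8, 5, 6 and 2 in the same order. By the brighter probe alone, used in the fits, the first of these were 13 and 9, since Gc was above background in EC-SP and EC-MP, on 2 arrays each, only with its other probe. The count was therefore highest in the CD157-CD200- subset and lowest in EC-SP.

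**Figure D1:**
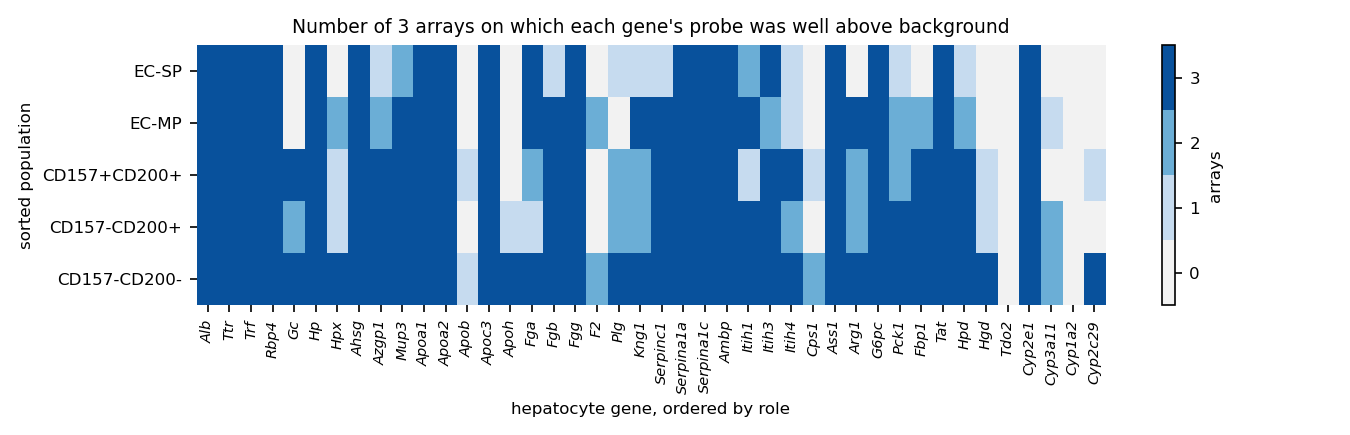
Number of arrays, out of 3 per sorted population (vertical axis), on which the probe of each of the 42 hepatocyte genes (horizontal axis, ordered by role) was well above background. CD157-CD200- has 36 genes at 3 arrays, against 26 in each CD200-positive subset, 24 in EC-MP and 19 in EC-SP.

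A gene entered a fit if some group in it had the probe well above background on each of its 3 arrays, which left 36 members for the subsets and 25 for EC-SP and EC-MP. The subset fit left out Apob, F2, Cps1, Tdo2, Cyp3a11 and Cyp1a2. Another 8 members passed only through the CD157-CD200- arrays (Hpx, Apoh, Fga, Plg, Kng1, Arg1, Hgd and Cyp2c29), so that their difference from the other subsets follows in part from the filter. Counts are therefore led by the 24 members well above background on all 9 subset arrays. Calls were made at an adjusted p under 0.05, by the Benjamini-Hochberg method across every feature tested, and differences carry the standard error of the fit with n = 3 arrays per group.

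The CD157-CD200- subset, the population without either surface marker, had the highest levels of most hepatocyte transcripts. Of the 24 members measured on all 9 arrays, 17 were called lower and 1 higher in CD157+CD200+ than in CD157-CD200-, with a median log2 difference of -1.40. Over all features the median difference was 0.01, 7.11% were called lower and 8.09% higher. Against the same subset, CD157-CD200+ had 18 of 24 called lower and 0 higher, with a median of -1.41 beside 0.02 over all features, of which 5.54% were called lower and 6.31% higher. In a fit restricted to probes well above background on all 9 arrays, the counts were again 17 lower and 1 higher, and 18 lower and 0 higher. The shares of all features called there were 7.18% lower and 6.72% higher for CD157+CD200+, and 5.66% lower and 5.09% higher for CD157-CD200+. With the dimmer members included, 25 of 36 were called lower and 1 higher in CD157+CD200+, and 26 of 36 lower and 0 higher in CD157-CD200+. Leaving out 1 array at a time gave 17 to 25 lower calls for CD157+CD200+. For CD157-CD200+ it gave 15 to 26, with 15 without CD157-CD200+ replicate 1 and 17 without CD157-CD200- replicate 2 or replicate 3. That count was also 17 with no filter on dim probes.

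The shift was present on each slide. Same-numbered arrays of the 3 subsets shared a slide and a scan, and the median difference of the 24 members within slides 1 to 3 was -1.40, -1.44 and -1.52 for CD157+CD200+. The same medians were -1.34, -1.51 and -1.46 for CD157-CD200+. On 17 of the 24 genes the lowest CD157-CD200- array lay above all 6 other subset arrays, against 9.52% of all probes well above background on every array. Limma's F test for any difference among the subsets called 19 of the 24 members, against 13.9% of all features, and again 19 in the fit restricted to probes on all 9 arrays, against 12.7% of its features. By array, the median deviation from each gene's mean over the 9 arrays was 0.82, 1.01 and 0.96 in CD157-CD200-, -0.42, -0.31 and -0.35 in CD157+CD200+ and -0.49, -0.42 and -0.62 in CD157-CD200+. The 3 CD157-CD200- arrays thus stood above zero together and the 6 others below it.

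**Figure D2:**
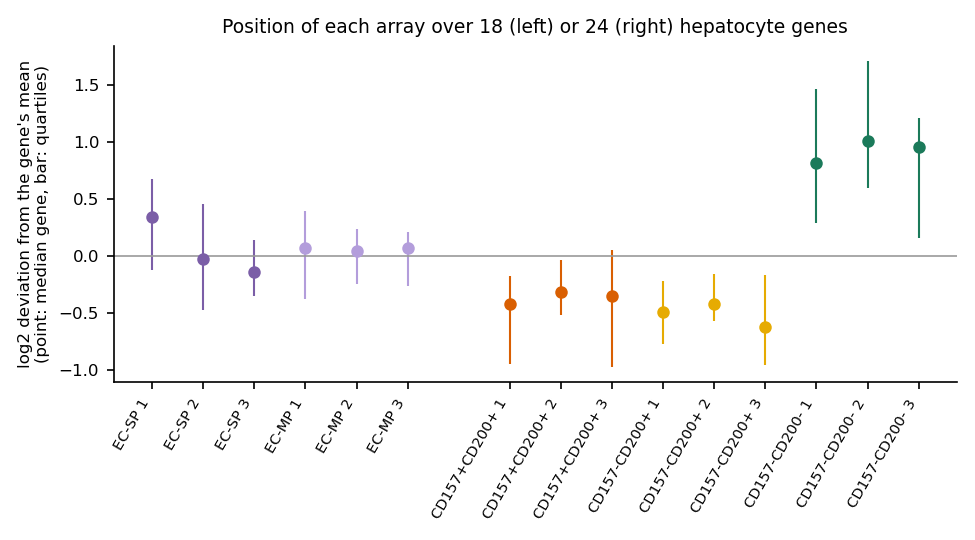
Median over hepatocyte genes of each array's log2 deviation from the gene's mean within its set of arrays (points; bars span the quartiles over genes), for 18 genes on the arrays of EC-SP and EC-MP and for 24 genes on those of the subsets. The CD157-CD200- arrays lie at 0.82 to 1.01 and the other subset arrays at -0.62 to -0.31, whereas the EC-SP and EC-MP arrays lie between -0.14 and 0.34.

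Of the 10 plasma carriers, 8 were measured on all 9 arrays, and 7 of these were called lower in each CD200-positive subset than in CD157-CD200-. The exception was Azgp1 in both. Gc and Hpx were also called lower, but Gc was at background on 1 array and Hpx entered the test only through CD157-CD200-. For this and the roles below, the shares of all features called lower were 7.11% in CD157+CD200+ and 5.54% in CD157-CD200+. Alb, albumin, the main osmotic and ligand-carrying protein of plasma, gave levels of 2.48, 3.25 and 2.20 in CD157-CD200-, 1.53, 1.79 and 1.93 in CD157+CD200+ and 1.15, 1.13 and 1.22 in CD157-CD200+. The fitted differences from CD157-CD200- were -0.89 ± 0.26 (adjusted p = 0.0473) for CD157+CD200+ and -1.48 ± 0.26 (adjusted p = 0.00455) for CD157-CD200+. The 3 subsets did not overlap, with CD157-CD200- highest and CD157-CD200+ lowest. The first Alb call was lost in 8 of 9 fits that left out 1 array (adjusted p up to 0.163), all but the fit without CD157-CD200- replicate 3. It was also lost with quantile normalization (adjusted p = 0.0788), the deposited table (0.0629) and no filter on dim probes (0.104). The 75th percentile over probes well above background on all arrays gave 0.0786, and 6 of 18 alternatives kept the call. The difference was -0.59 without CD157-CD200- replicate 2. Ttr, transthyretin, which carries thyroxine and retinol-binding protein, had levels of 0.08, 0.60 and 0.43 in CD157-CD200-, -0.48, -0.35 and -0.25 in CD157+CD200+ and -1.14, -0.95 and -0.64 in CD157-CD200+. It differed by -0.73 ± 0.20 (adjusted p = 0.0383) in CD157+CD200+ and by -1.28 ± 0.20 (adjusted p = 0.00243) in CD157-CD200+. Ttr ranked the subsets in the same order as Alb, again without overlap, and its first call was lost in 7 of 9 fits that left out 1 array (adjusted p up to 0.135). That call was kept in 8 of 18 alternatives.

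Trf, the iron carrier transferrin, had levels of 1.69, 2.03 and 1.88 in CD157-CD200-, 0.98, 1.11 and 1.40 in CD157+CD200+ and 1.16, 0.88 and 1.27 in CD157-CD200+. Its differences of -0.70 ± 0.19 (adjusted p = 0.0355) and -0.77 ± 0.19 (adjusted p = 0.0287) were the smallest among the called carriers. The CD157-CD200- arrays lay above all others for Trf, and the calls were lost in 6 and 4 of 9 fits that left out 1 array (adjusted p up to 0.138 and 0.116). Rbp4, the retinol carrier, had -0.33, -0.52 and -0.53 in CD157-CD200-, -2.80, -2.27 and -2.11 in CD157+CD200+ and -1.87, -2.55 and -2.97 in CD157-CD200+. This gave -1.93 ± 0.29 (adjusted p = 0.0014) and -2.00 ± 0.29 (adjusted p = 0.00137). The CD200-positive subsets overlapped each other in Rbp4 and stood well below the 3 CD157-CD200- arrays. Gc, the vitamin D-binding protein, showed -0.75, -0.61 and -1.02, -3.45, -2.56 and -3.43 and -2.72, -2.87 and -4.06 in the same order of subsets, the last array being at background. It differed by -2.35 ± 0.37 (adjusted p = 0.00198) and -2.42 ± 0.37 (adjusted p = 0.00198), again with CD157-CD200- apart from the rest.

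Hp, haptoglobin, which binds free haemoglobin, had levels of 0.14, 0.68 and 0.76 in CD157-CD200-, -1.10, -0.75 and -0.19 in CD157+CD200+ and -0.62, -0.81 and -0.34 in CD157-CD200+. Its differences were -1.21 ± 0.27 (adjusted p = 0.0141) and -1.12 ± 0.27 (adjusted p = 0.0248). No array of the CD200-positive subsets reached the lowest CD157-CD200- array, while the first call was lost without CD157+CD200+ replicate 1 (adjusted p = 0.061) or replicate 2 (0.050) and the second in 4 of 9 such fits (up to 0.095). Hpx, hemopexin, the haem carrier, had -2.84, -2.20 and -2.36, -5.94, -3.52 and -4.81 and -5.05, -3.90 and -4.60 in the same order, with only the second array of each CD200-positive subset above background. The differences, -2.29 ± 0.54 (adjusted p = 0.0176) and -2.05 ± 0.54 (adjusted p = 0.0359), belong to a gene that passed the filter through CD157-CD200-. They were lost in 3 and 6 of 9 fits that left out 1 array (adjusted p up to 0.059 and 0.137).

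Ahsg, fetuin-A, an inhibitor of mineral deposition, had levels of 1.39, 2.26 and 1.16 in CD157-CD200-, -1.13, 0.16 and -1.07 in CD157+CD200+ and 0.00, 0.00 and -0.76 in CD157-CD200+. It differed by -2.28 ± 0.41 (adjusted p = 0.0042) and -1.85 ± 0.41 (adjusted p = 0.016). The CD157-CD200- arrays lay above all others and the CD200-positive subsets overlapped each other, and the second call was lost without CD157-CD200- replicate 2 (adjusted p = 0.053) or CD157-CD200+ replicate 3 (0.063). Mup3, a major urinary protein that carries pheromones, had -0.14, -0.21 and 0.03 in CD157-CD200-, -2.38, -3.22 and -2.87 in CD157+CD200+ and -2.45, -3.64 and -2.49 in CD157-CD200+. Its differences of -2.72 ± 0.33 (adjusted p = 0.000394) and -2.75 ± 0.33 (adjusted p = 0.000466) correspond to levels 6.58 and 6.74 times higher in CD157-CD200-. These were the largest of the carrier group, and Mup genes are so alike that the copy measured is uncertain. Azgp1, zinc-alpha-2-glycoprotein, was not called at -0.90 ± 0.45 (adjusted p = 0.252) and -0.74 ± 0.45 (adjusted p = 0.424), and its CD157-CD200- levels of -2.40, -1.55 and -3.27 spread widely enough to overlap the other subsets.

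**Figure D3:**
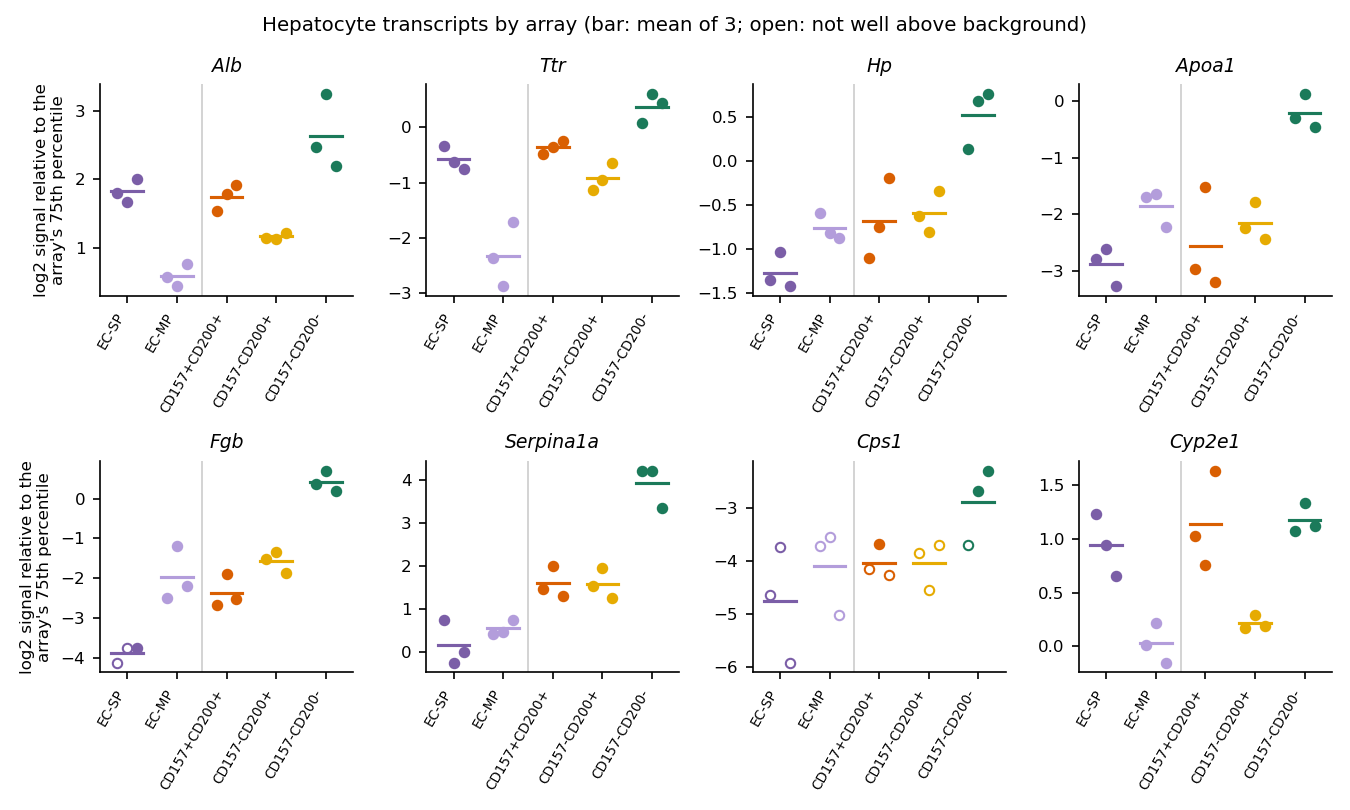
Log2 level relative to the array's 75th percentile (vertical axis) of 8 hepatocyte genes on the 15 arrays, grouped by sorted population; bars are means of 3 arrays and open points were not well above background. Alb, Ttr, Hp, Apoa1, Fgb and Serpina1a have their 3 CD157-CD200- arrays above all other subset arrays, whereas Cyp2e1 in CD157+CD200+ overlaps CD157-CD200-.

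Of the 5 apolipoproteins, 4 were tested and 3, Apoa1, Apoa2 and Apoh, were called lower in both CD200-positive subsets. Apoa1, the main protein of high-density lipoprotein, had levels of -0.30, 0.13 and -0.45 in CD157-CD200-, -2.98, -1.51 and -3.20 in CD157+CD200+ and -2.24, -1.79 and -2.44 in CD157-CD200+. It differed by -2.36 ± 0.41 (adjusted p = 0.00335) and -1.95 ± 0.41 (adjusted p = 0.012). The CD157-CD200- arrays lay above all others, and the CD157-CD200+ arrays fell within the wider range of CD157+CD200+. Apoa2, another protein of that particle, had 3.24, 2.85 and 4.08 in CD157-CD200-, 1.14, 1.66 and 2.03 in CD157+CD200+ and 1.47, 1.33 and 2.26 in CD157-CD200+. This gave -1.78 ± 0.38 (adjusted p = 0.0102) and -1.70 ± 0.38 (adjusted p = 0.0154). The second Apoa2 call was lost without CD157-CD200+ replicate 1 (adjusted p = 0.067) or replicate 2 (0.064), and its other probe differed by -2.56 and -2.39.

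Apoh, beta-2-glycoprotein I, which binds anionic phospholipid, had levels of -2.03, -2.18 and -2.66 in CD157-CD200-, -5.97, -4.72 and -6.30 in CD157+CD200+ and -6.16, -3.70 and -5.84 in CD157-CD200+. It was above background on all 3 CD157-CD200- arrays, on none of CD157+CD200+ and on 1 of CD157-CD200+. Its CD157-CD200- level was at least 3.31-fold higher than that of CD157+CD200+ (fitted adjusted p = 0.00467). For such bounds the bright group's mean is set against the dim group's mean of, per array, the probe's own signal or the lowest signal called well above background, whichever was higher. In CD157-CD200+ the difference was -2.94 ± 0.62 (adjusted p = 0.0123), lost without CD157-CD200+ replicate 1 (0.052) or CD157-CD200- replicate 1 (0.051). Apoc3, an inhibitor of lipoprotein lipase, was not called with its brighter probe, at -0.17 ± 0.28 (adjusted p = 0.797) and -0.17 ± 0.28 (adjusted p = 0.851). Its probes disagreed: the other differed by -2.38 and -2.31, and the mean of both by -1.28 and -1.24 (adjusted p = 0.00106 and 0.00154). Apob, the structural protein of very-low-density lipoprotein, was above background on 2 of 15 arrays and was not tested.

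In the coagulation and fibrinolysis group, Fgb, Fgg and Serpinc1 were measured on all 9 arrays, and 3 of 3 were called lower in each CD200-positive subset. Fga, Plg and Kng1 were also called lower, but entered the test only through the CD157-CD200- arrays. Fgb, the fibrinogen beta chain, had levels of 0.35, 0.70 and 0.18 in CD157-CD200-, -2.67, -1.89 and -2.53 in CD157+CD200+ and -1.51, -1.33 and -1.87 in CD157-CD200+. It differed by -2.78 ± 0.26 (adjusted p = 5.88e-05) and -1.98 ± 0.26 (adjusted p = 0.000684), which is 6.85 and 3.95 times higher in CD157-CD200-. The Fgb levels of the 3 subsets did not overlap, and CD157+CD200+ was lowest, the reverse of its order for Alb and Ttr. Fgg, the gamma chain, had -0.51, 0.04 and -0.52 in CD157-CD200-, -2.36, -2.15 and -2.03 in CD157+CD200+ and -2.16, -2.25 and -3.06 in CD157-CD200+. Its differences were -1.85 ± 0.27 (adjusted p = 0.00122) and -2.16 ± 0.27 (adjusted p = 0.000577), with CD157-CD200- apart and the others overlapping. Fga, the alpha chain, had -2.19, -1.03 and -1.78, -4.02, -3.77 and -2.51 and -3.81, -2.72 and -3.71 in the same order of subsets, with 1 CD157+CD200+ and 2 CD157-CD200+ arrays at background. It differed by -1.77 ± 0.46 (adjusted p = 0.0289) and -1.74 ± 0.46 (adjusted p = 0.0368). The 3 fibrinogen chains, which join in 1 protein, were all lower, but the Fga calls were lost in 4 and 5 of 9 fits that left out 1 array (adjusted p up to 0.113 and 0.138).

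Plg, plasminogen, the precursor of the protease that dissolves fibrin, had levels of -2.21, -1.23 and -2.10 in CD157-CD200-, -3.89, -3.19 and -4.02 in CD157+CD200+ and -4.13, -3.78 and -3.34 in CD157-CD200+. Its differences were -1.85 ± 0.33 (adjusted p = 0.0042) and -1.90 ± 0.33 (adjusted p = 0.00441). The first CD157+CD200+ and the first CD157-CD200+ array were at background, and none of these 6 reached CD157-CD200-. Kng1, kininogen, the source of bradykinin, had -2.08, -1.09 and -0.57, -4.39, -2.73 and -3.47 and -4.00, -3.65 and -2.53 in the same order, with the first array of each CD200-positive subset at background. It differed by -2.28 ± 0.53 (adjusted p = 0.0171) and -2.15 ± 0.53 (adjusted p = 0.0277). These calls were lost in 3 and 4 of 9 fits that left out 1 array (adjusted p up to 0.069 and 0.114). Serpinc1, antithrombin, had -1.50, -0.96 and -1.17, -2.34, -2.51 and -2.69 and -2.86, -2.25 and -1.85, all above background. It differed by -1.30 ± 0.27 (adjusted p = 0.00867) and -1.11 ± 0.27 (adjusted p = 0.0242), the smallest differences of the group, and the second was lost in 4 of 9 fits (up to 0.084). F2, prothrombin, was above background on 2 of 3 CD157-CD200- arrays and on none of the 6 other subset arrays, and was not tested.

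The protease inhibitors divided. Serpina1a, an alpha-1-antitrypsin, the main plasma inhibitor of neutrophil elastase, had levels of 4.22, 4.22 and 3.34 in CD157-CD200-, 1.46, 2.01 and 1.31 in CD157+CD200+ and 1.54, 1.95 and 1.25 in CD157-CD200+. It differed by -2.33 ± 0.31 (adjusted p = 0.000581) and -2.35 ± 0.31 (adjusted p = 0.000703), or 5.04-fold and 5.08-fold higher in CD157-CD200-. The CD157-CD200- arrays lay above all others, while the CD200-positive subsets overlapped almost wholly. Serpina1c, a near-identical copy, had 4.17, 4.28 and 3.36, 1.41, 1.88 and 1.24 and 1.51, 1.91 and 1.18, with differences of -2.43 ± 0.30 (adjusted p = 0.000411) and -2.41 ± 0.30 (adjusted p = 0.000563). The levels of these probes differed by at most 0.27 on any of 15 arrays, so they may not be independent measurements, and which copies they read is uncertain.

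Itih3 went the other way. It encodes a heavy chain of inter-alpha-trypsin inhibitor, which is transferred to hyaluronan, and had levels of -0.76, -0.87 and -1.00 in CD157+CD200+, -2.29, -1.50 and -2.02 in CD157-CD200+ and -2.43, -2.52 and -3.10 in CD157-CD200-. The difference from CD157-CD200- was 1.81 ± 0.25 (adjusted p = 0.000896) for CD157+CD200+ and 0.75 ± 0.25 (adjusted p = 0.0992) for CD157-CD200+. The subsets did not overlap and stood in the order CD157+CD200+, CD157-CD200+, CD157-CD200-; with the slide as a block the second difference was called (adjusted p = 0.0483). Itih1 and Itih4, other heavy chains, were not called: -0.83 ± 0.41 and -0.88 ± 0.33 for CD157+CD200+ (adjusted p = 0.242 and 0.114), -0.29 ± 0.41 and -1.08 ± 0.33 for CD157-CD200+ (adjusted p = 0.811 and 0.065). With the block, Itih1 was called lower in CD157+CD200+ (adjusted p = 0.0188) and Itih4 lower in CD157-CD200+ (adjusted p = 0.0357). Ambp, the precursor of alpha-1-microglobulin and of bikunin, the light chain of that inhibitor, was not called at 0.51 ± 0.23 (adjusted p = 0.19) and -0.31 ± 0.23 (adjusted p = 0.532). Ambp levels of 1.37, 1.87 and 1.12 in CD157-CD200- overlapped those of both other subsets.

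In the urea cycle and gluconeogenesis, 1 of 5 tested members was called lower in CD157+CD200+ and 2 in CD157-CD200+. Fbp1, fructose bisphosphatase, had levels of 0.81, 0.04 and 0.98 in CD157-CD200-, -2.19, -1.11 and -2.00 in CD157+CD200+ and -1.78, -1.37 and -1.78 in CD157-CD200+. It differed by -2.38 ± 0.33 (adjusted p = 0.000912) and -2.25 ± 0.33 (adjusted p = 0.00156), with CD157-CD200- far above the rest. Pck1, which makes phosphoenolpyruvate for gluconeogenesis, had 0.08, -0.96 and 0.73 in CD157-CD200-, -4.11, -1.85 and -1.69 in CD157+CD200+ and -3.88, -2.89 and -1.51 in CD157-CD200+. It was called in CD157-CD200+ at -2.71 ± 0.76 (adjusted p = 0.0485) and missed the threshold in CD157+CD200+ at -2.50 ± 0.76 (adjusted p = 0.0563), where the block gave 0.0178. Pck1 spread by over 2 log2 units within each CD200-positive subset, and its call was lost in 6 of 9 fits that left out 1 array (adjusted p up to 0.176). Cps1, which starts the urea cycle in periportal hepatocytes, had -3.69, -2.68 and -2.30 in CD157-CD200-, -4.15, -3.69 and -4.26 in CD157+CD200+ and -3.84, -4.55 and -3.70 in CD157-CD200+. It was above background on 2 CD157-CD200- arrays and 1 CD157+CD200+ array of the 9, and on no EC-SP or EC-MP array, so no fold is given.

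Ass1, argininosuccinate synthase, which endothelial cells also use to recycle citrulline to arginine, was not called: 0.29 ± 0.21 in CD157+CD200+ (adjusted p = 0.452) and 0.56 ± 0.21 in CD157-CD200+ (adjusted p = 0.142, and 0.0403 with the block). Its levels were 1.26, 1.41 and 1.48 in CD157-CD200-, 1.53, 2.00 and 1.51 in CD157+CD200+ and 1.96, 2.21 and 1.66 in CD157-CD200+, so that CD157-CD200- was lowest. Arg1, arginase, differed by -1.05 ± 0.56 and -1.02 ± 0.56 (adjusted p = 0.277 and 0.349), and G6pc, glucose-6-phosphatase, by 0.27 ± 0.34 and 0.06 ± 0.34 (adjusted p = 0.721 and 0.965). Neither Arg1 nor G6pc was called.

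In the amino acid group, Tat and Hpd were measured on all 9 arrays and both were called lower in each CD200-positive subset. Hgd was called lower as well, but entered the test only through CD157-CD200-, and Tdo2 was not tested. Tat, the aminotransferase that begins tyrosine breakdown, had levels of 0.37, 0.01 and 0.44 in CD157-CD200-, -1.18, -1.32 and -1.14 in CD157+CD200+ and -0.90, -0.67 and -1.62 in CD157-CD200+. It differed by -1.49 ± 0.25 (adjusted p = 0.00283) and -1.34 ± 0.25 (adjusted p = 0.00641). Hpd, the dioxygenase of the next step, had 0.28, -0.12 and 0.92 in CD157-CD200-, -1.63, -1.87 and -1.88 in CD157+CD200+ and -2.80, -1.59 and -2.47 in CD157-CD200+. Its differences of -2.15 ± 0.34 (adjusted p = 0.00202) and -2.65 ± 0.34 (adjusted p = 0.000684) were the largest of this group in each comparison. Hgd, homogentisate dioxygenase, had -2.85, -2.31 and -2.87 in CD157-CD200-, -5.11, -3.86 and -5.14 in CD157+CD200+ and -5.24, -4.28 and -3.75 in CD157-CD200+, with 1 array of each CD200-positive subset above background. It differed by -2.03 ± 0.44 (adjusted p = 0.011) and -1.75 ± 0.44 (adjusted p = 0.0278). The Hgd calls were lost without CD157+CD200+ replicate 1 (adjusted p = 0.052) in the first comparison and in 5 of 9 fits that left out 1 array in the second (up to 0.099). For Tat and Hpd the CD157-CD200- arrays lay above all others and both calls held under each alternative run.

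Of the 4 cytochromes P450, 2 were tested, and 1 was called lower in each CD200-positive subset, not the same gene in both. Of these, Cyp2c29 entered the test only through the CD157-CD200- arrays. Cyp2e1, which oxidises ethanol in pericentral hepatocytes, had levels of 1.07, 1.33 and 1.12 in CD157-CD200-, 1.03, 0.76 and 1.63 in CD157+CD200+ and 0.17, 0.29 and 0.19 in CD157-CD200+. It differed by -0.03 ± 0.23 (adjusted p = 0.96) in CD157+CD200+ and by -0.96 ± 0.23 (adjusted p = 0.0226) in CD157-CD200+. CD157+CD200+ overlapped CD157-CD200-, and CD157-CD200+ lay below both, a call lost in 6 of 9 fits that left out 1 array (adjusted p up to 0.084). Its other probe gave 0.19 and -1.30. Cyp2c29, another drug-metabolising enzyme, had -2.46, -2.39 and -3.20 in CD157-CD200-, -5.24, -3.50 and -5.65 in CD157+CD200+ and -3.95, -4.20 and -5.69 in CD157-CD200+, with 1 of the last 6 arrays above background. It was called in CD157+CD200+ at -2.11 ± 0.60 (adjusted p = 0.0415), lost in 7 of 9 fits that left out 1 array (up to 0.142). In CD157-CD200+, where no array was above background, its level was at least 2.53-fold lower but not called (adjusted p = 0.0729, and 0.0144 with the block). Cyp2c genes are a large family, so the copy measured is uncertain. Cyp3a11 was above background on 5 of 15 arrays and Cyp1a2 on none.

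**Figure D4:**
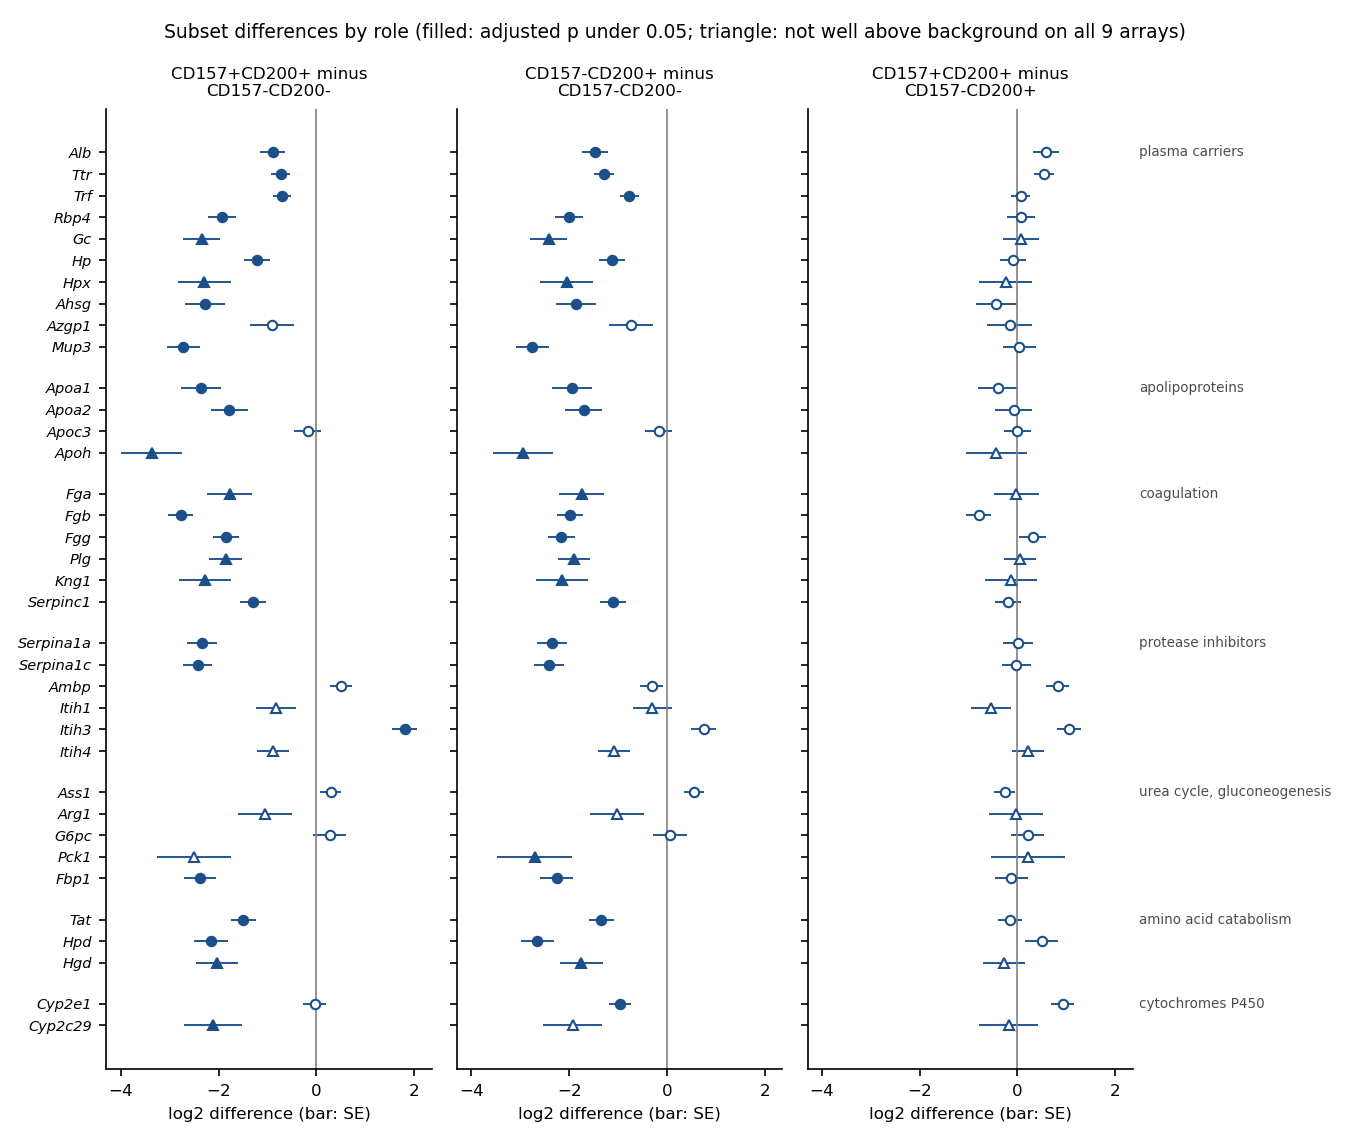
Fitted log2 differences (horizontal axis, bars are standard errors, n = 3 arrays per group) of the 36 tested hepatocyte genes, ordered by role, for the 3 subset comparisons on the same scale. Filled symbols passed an adjusted p of 0.05 (26, 26 and 0 genes from left to right) and triangles mark genes not well above background on all 9 arrays.

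The same 24 genes were called lower in both CD200-positive subsets, but these comparisons share the CD157-CD200- arrays. They were Ahsg, Alb, Apoa1, Apoa2, Apoh, Fbp1, Fga, Fgb, Fgg, Gc, Hgd, Hp, Hpd, Hpx, Kng1, Mup3, Plg, Rbp4, Serpina1a, Serpina1c, Serpinc1, Tat, Trf and Ttr. They make 24 of 25 in the CD157+CD200+ list, which adds Cyp2c29, and 24 of 26 in the CD157-CD200+ list, which adds Cyp2e1 and Pck1. Of the listed genes, Apoh, Fga, Hgd, Hpx, Kng1, Plg and Cyp2c29 entered the test only through CD157-CD200-, so their calls follow in part from the filter. Over all features, 7.11% were called lower in CD157+CD200+ and 5.54% in CD157-CD200+, and the overlap of those calls was not counted.

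The CD200-positive subsets were sorted apart by CD157, and both the Bst1 and the Cd200 transcript were called higher in CD157+CD200+. Between these subsets no member was called. Limma gave 0 of 36 in either direction, against 0.802% of all features higher and 0.245% lower in CD157+CD200+, and the median difference was -0.02 beside -0.01 over all features. At an unadjusted p under 0.05, 4 members were higher in CD157+CD200+ (Ttr, Ambp, Itih3 and Cyp2e1) and 1 lower (Fgb). Itih3 at 1.06 ± 0.25 (adjusted p = 0.116), Cyp2e1 at 0.92 ± 0.23 (adjusted p = 0.13) and Ambp at 0.82 ± 0.23 (adjusted p = 0.202) had the largest positive differences. For each of these the CD157+CD200+ arrays lay above the CD157-CD200+ arrays without overlap. Fgb differed by -0.79 ± 0.26 (adjusted p = 0.318) and was called lower in CD157+CD200+ only with the slide as a block (adjusted p = 0.0372). A p that misses the threshold does not show that these subsets are alike.

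The EC-SP and EC-MP arrays gave no common shift of hepatocyte transcripts. Of the 18 members well above background on all 6 arrays, 4 were called higher in EC-SP and 1 lower, with a median difference of -0.09 beside -0.01 over all features. In all, 5 of 25 tested members were called higher, against 9.11% of features, and 6 lower, against 7.44%. Of these, 5 of the 6 lower members entered the test only through EC-MP and 1 of the 5 higher, Itih3, only through EC-SP, so that their difference follows in part from the filter. A fit restricted to probes well above background on every array called 4 higher and 1 lower, against 9.21% and 7.22% of its features. By array, the median deviation over the 18 genes was 0.34, -0.03 and -0.14 in EC-SP and 0.07, 0.04 and 0.07 in EC-MP. The count of lower calls was 2 without EC-MP replicate 1, 3 without EC-SP replicate 2, 2 with normexp background correction and 3 with no filter on dim probes. It was 7 with the deposited table and 8 with the mean of a gene's probes.

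The members higher in EC-SP were Ambp, Itih3, Ttr, Alb and Cyp2e1. Ambp, the bikunin precursor, had levels of 2.73, 2.24 and 2.66 in EC-SP and 0.29, 0.15 and 0.44 in EC-MP, and differed by 2.25 ± 0.23 (adjusted p = 0.000362). Itih3, the heavy chain gene, had -1.46, -1.86 and -1.24 in EC-SP and -3.48, -3.31 and -3.64 in EC-MP, and differed by 1.96 ± 0.24 (adjusted p = 0.000883). For both genes the EC-SP arrays lay above the EC-MP arrays, although Itih3 entered the test only through EC-SP. Itih1, another heavy chain of the inhibitor, was not called at -0.19 ± 0.29 (adjusted p = 0.736), and Itih4 was not tested here. Ttr had -0.34, -0.64 and -0.75 in EC-SP and -2.36, -2.87 and -1.72 in EC-MP, and differed by 1.75 ± 0.31 (adjusted p = 0.00561). Alb had 1.80, 1.67 and 2.01 in EC-SP and 0.58, 0.44 and 0.77 in EC-MP, and differed by 1.23 ± 0.22 (adjusted p = 0.00561). For Ambp, Itih3, Ttr and Alb the calls held in every fit that left out 1 array and in every other alternative in which they were tested. Cyp2e1 had 1.23, 0.94 and 0.65 in EC-SP and 0.01, 0.22 and -0.15 in EC-MP, and differed by 0.92 ± 0.24 (adjusted p = 0.0306). Its groups did not overlap, its other probe differed by 1.88, and the call was lost in 5 of 6 fits that left out 1 array (adjusted p up to 0.107).

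The members lower in EC-SP were Fgb, Kng1, Mup3, Arg1, Serpinc1 and Apoa1, and the first 5 of these were at background on at least 1 EC-SP array. Fgb had levels of -4.12, -3.75 and -3.74 in EC-SP and -2.49, -1.18 and -2.20 in EC-MP, and differed by -1.91 ± 0.34 (adjusted p = 0.00585, and 0.059 with normexp). Mup3 had -3.66, -3.00 and -3.57 in EC-SP and -2.32, -1.13 and -1.60 in EC-MP, and differed by -1.73 ± 0.33 (adjusted p = 0.00842). The Fgb and Mup3 groups did not overlap, and their calls held in every fit that left out 1 array. Kng1 had -3.35, -3.40 and -5.30 in EC-SP and -1.87, -2.71 and -2.16 in EC-MP, and differed by -1.78 ± 0.50 (adjusted p = 0.0418, and 0.0511 with the block). Serpinc1 had -4.38, -3.62 and -3.59 in EC-SP and -2.05, -3.21 and -2.08 in EC-MP, and differed by -1.42 ± 0.37 (adjusted p = 0.0301, and 0.0511 with the block). Each of these was above background on 1 EC-SP array only, and both calls were lost in 4 of 6 fits that left out 1 array (adjusted p up to 0.117 and 0.102). Arg1 had -3.74, -5.74 and -4.76 in EC-SP, none above background, and -3.33, -3.14 and -2.91 in EC-MP, which makes it at least 1.66-fold higher in EC-MP (fitted adjusted p = 0.0362). Apoa1 had -2.79, -2.61 and -3.28 in EC-SP and -1.70, -1.64 and -2.22 in EC-MP, and differed by -1.04 ± 0.27 (adjusted p = 0.0301). Neither gene overlapped between the groups, and the calls were lost in 5 and 4 of 6 fits that left out 1 array (adjusted p up to 0.096 and 0.104).

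The remaining 14 tested members were not called, among them Serpina1a at -0.39 ± 0.29 (adjusted p = 0.42), with levels of 0.73, -0.25 and 0.00 in EC-SP and 0.42, 0.47 and 0.75 in EC-MP. Hp had -1.36, -1.04 and -1.43 in EC-SP and -0.60, -0.82 and -0.88 in EC-MP, and its difference of -0.51 ± 0.22 was not called (adjusted p = 0.162) although the groups did not overlap. Cps1 levels of -4.64, -3.74 and -5.92 in EC-SP and -3.71, -3.54 and -5.02 in EC-MP were all at background. Ahsg differed by -0.99 ± 0.45 (adjusted p = 0.175) and was called lower only without EC-SP replicate 1 (-1.50, adjusted p = 0.035). Apoa2 differed by -0.61 ± 0.21 (adjusted p = 0.0862), and its other probe by -1.94. It was called lower with normexp (adjusted p = 0.0476), the deposited table (0.0388) and the mean of its probes (-1.28, adjusted p = 0.00502). Apoc3 again depended on its probe: 0.17 ± 0.27 (adjusted p = 0.738) with the brighter probe, -2.80 with the other and -1.31 with their mean (adjusted p = 0.031). Alb and Ttr were higher in EC-SP than in EC-MP and lower in CD157+CD200+ than in CD157-CD200-. These sets of arrays were read on different scanners and fitted apart, and whether the differences themselves differ was not tested.

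**Figure D5:**
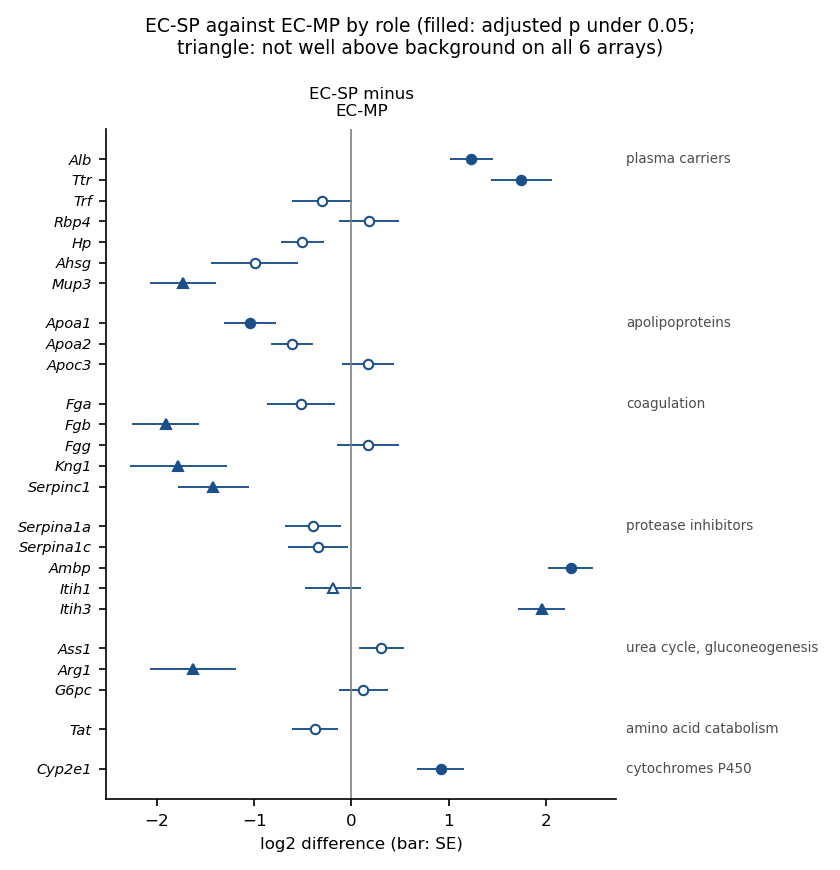
Fitted log2 differences, EC-SP minus EC-MP (horizontal axis, bars are standard errors, n = 3 arrays per group), of the 25 tested hepatocyte genes ordered by role. Filled symbols passed an adjusted p of 0.05, 5 higher and 6 lower in EC-SP, and triangles mark genes not well above background on all 6 arrays.

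Other hepatocyte genes, on lists apart from the 42, gave further values. Of 30 other enzymes and transporters, 21 were tested in the subsets, and 14 were called lower and 0 higher in CD157+CD200+ than in CD157-CD200- (median -1.54), and 11 lower and 0 higher in CD157-CD200+ (median -1.42). Among them, Akr1c6 differed by -2.79 ± 0.30 and -2.45 ± 0.30 (adjusted p = 0.000159 and 0.000483). Of 36 other secreted proteins, 19 were tested, and 4 were called lower in CD157+CD200+ and 6 in CD157-CD200+, with 0 higher. Serpina3k, an alpha-1-antichymotrypsin relative, differed by -3.61 ± 0.41 and -2.51 ± 0.41 (adjusted p = 0.000249 and 0.00305). Over all features, 7.11% were called lower in CD157+CD200+ and 5.54% in CD157-CD200+. Listed genes that entered the test only through CD157-CD200- were not set apart, so these counts follow in part from the filter. In EC-SP, 2 of 15 tested enzymes were higher and 2 lower, and 1 of 19 secreted proteins each way. Over all features, 9.11% were called higher there and 7.44% lower. Hepatocyte transcription factors showed no common direction: of 9 tested, Nr1h4 was higher (2.08 ± 0.18 and 2.82 ± 0.18), Cebpa lower (-1.02 ± 0.29 and -1.08 ± 0.29) and Hnf4a lower in CD157-CD200+ only (-2.43 ± 0.45). Onecut1 and Creb3l3 were above background on no array.

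Markers of some other cell types moved with the same groups, and those of others did not. Over all features, 7.11% were called lower and 8.09% higher in CD157+CD200+ than in CD157-CD200-, and 5.54% and 6.31% in CD157-CD200+. Of 12 sinusoidal endothelial markers, 12 were called lower in CD157+CD200+ than in CD157-CD200- and 11 in CD157-CD200+. Of 10 tested Kupffer cell markers, 7 were lower in CD157+CD200+ and 6 in CD157-CD200+, with Clec4f at -2.04 ± 0.27 and -1.29 ± 0.27. The summed Kupffer level, as multiples of the array's 75th percentile, was 37.4 to 52.0 in CD157-CD200-, 26.3 to 28.5 in CD157+CD200+ and 25.1 to 33.4 in CD157-CD200+, and Timd4 and Cd163 were above background on no array. Of 5 tested erythroid markers, 2, the alpha globins Hba-a1 and Hba-a2, were lower in both, and the summed erythroid level was 16.6 to 32.2 in CD157-CD200-, 1.49 to 2.50 in CD157+CD200+ and 1.70 to 2.26 in CD157-CD200+. Ptprc, the pan-leukocyte marker, was not called (-0.20 ± 0.42 and -0.20 ± 0.42). Of 8 tested stellate markers, 2 were higher and 2 lower in CD157+CD200+, and 3 higher and 2 lower in CD157-CD200+. Their summed level was 10.4 to 13.6 in CD157-CD200-, 33.3 to 38.2 in CD157+CD200+ and 34.5 to 41.0 in CD157-CD200+. Such sums add signals of different probes, dim ones included, so the brightest probes weigh most. For the 30 other hepatocyte enzymes and transporters the sums were 721 to 792, 780 to 808 and 746 to 796 in the same order. For the 36 other secreted proteins they were 21.3 to 26.6, 13.2 to 16.9 and 12.7 to 14.6. None of 5 tested lymphocyte or 10 tested cholangiocyte markers was called in either comparison. Of 4 tested neutrophil markers, S100a9 was higher in CD157+CD200+ only. In EC-SP against EC-MP, markers moved in both directions. All 12 sinusoidal markers were lower in EC-SP, with a summed level of 28.9 to 31.7 against 351 to 601 in EC-MP. Hba-a1 and Hba-a2 of 4 tested erythroid markers, C1qa and C1qc of 8 tested Kupffer markers and the platelet marker Pf4 were also lower, with summed erythroid levels of 1.32 to 2.14 in EC-SP and 3.63 to 6.52 in EC-MP. Of 12 large-vessel endothelial markers, 8 were higher in EC-SP and 11 in each CD200-positive subset, with 0 lower. Of 11 tested cholangiocyte markers, 8 were called higher in EC-SP, led by Krt19 at 2.62 ± 0.29. Their summed level was 13.3 to 17.8 in EC-SP and 5.26 to 5.69 in EC-MP, and 7.14 to 9.39, 4.08 to 6.16 and 5.16 to 6.76 in CD157+CD200+, CD157-CD200+ and CD157-CD200-, with Cftr above background on no array. Of 8 tested hepatocyte transcription factors, Foxa1 and Foxa2, also found in bile duct, were called higher in EC-SP, Foxa2 at 4.38 ± 0.66 (adjusted p = 0.0024). Nr1h4 was lower (-2.01 ± 0.35, adjusted p = 0.00491). The part of these cell types in the hepatocyte transcripts was not tested.

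Replicate spread of the members was close to that of other features: the median residual standard deviation was 0.33 for 18 members and 0.32 for all features in EC-SP and EC-MP, and 0.36 for 24 members and 0.32 in the subsets. Of the called members, 17 of 26 in the CD157+CD200+ comparison, 14 of 26 in the CD157-CD200+ comparison and 5 of 11 in EC-SP kept their call under each alternative in which they were tested.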

How the data were processed

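RNA was amplified (Ovation Pico WTA System V2) and labelled with Cy3, per the labels. Spot values came from Agilent Feature Extraction, 10.10.1.1 for EC-SP and EC-MP and 11.5.1.1 for the subsets, per the file headers. They are processed signals, intensity values on a linear scale after background subtraction and spatial detrending, per the file headers. In the deposited table of the series these intensities appear times a constant per array of 5.46 to 10.1, uncentred, whose basis the sources used here do not give. Array column medians there were 218 to 335.

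Control spots and outlier spots (110 to 213 of 59305 per array) were left out and no spot was saturated. The log2 processed signal minus the array's log2 75th percentile was averaged over spots of a probe. Symbols were assigned to 28059 of 55681 probes through RefSeq accessions. A probe was tested if well above background on all 3 arrays of a group, and the brightest probe stood for a gene, leaving 23971 features for EC-SP and EC-MP (6 arrays) and 23701 for the subsets (9 arrays). Limma 3.58.1 in R 4.3.3 (lmFit, eBayes, two-sided) gave differences, checked on simulated data. The number of arrays limits the precision.

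The members and lists were chosen with earlier results of these data known. The 42 members are the named genes; values per array are given for called members and for Alb, Apoa1, Ttr, Fgb, Serpina1a, Cps1, Cyp2e1 and Hp. Other lists name only sort markers, Pecam1, Cdh5, Ptprc and the called genes of lowest adjusted p; the transcription factors were named after their values were seen. Same-numbered arrays shared a slide and a scan. After removal of group means they correlated at r of 0.27 to 0.33 (3 pairs, EC-SP and EC-MP) and 0.27 to 0.63 (9 pairs, subsets). Differently numbered arrays correlated at -0.20 to -0.08 (6 pairs) and -0.49 to 0.03 (18 pairs), and the removal of means ties these values to one another. Shared slides and a pairing of the samples cannot be told apart here. The main fit left the numbers out, and the replicate block used them. Alternatives were normexp, quantile normalization, the deposited table and the 75th percentile over probes well above background on all arrays. Others were filters, the mean of probes, the replicate block, 1 fit over 15 arrays and leaving out each array. Normexp used median spot signals in place of the planned mean ones.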

Additional observations from a re-analysis of the deposited data

How the results depend on the processing

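Counts of called hepatocyte genes kept within 1.5 times their value under most alternatives. For CD157-CD200+ against CD157-CD200-, 26 lower calls became 17 with no filter on dim probes and 15 to 26 when 1 array was left out, and 0 higher calls became 2 with the replicate block (Itih3 and Ass1). With the replicate block, CD157+CD200+ against CD157-CD200+ had 1 lower call (Fgb) in place of 0. For EC-SP against EC-MP, 6 lower calls became 2 with normexp background and 3 with no filter on dim probes. They became 1 with the filter that asks for every array above background and 2 to 5 when 1 array was left out. With the deposited table they became 7, and with the mean of a gene's probes 8. For CD157+CD200+ against CD157-CD200-, 25 lower calls ranged from 17 to 27 over all alternatives and the 1 higher call held in each. The F test's 26 calls among the 36 tested genes ranged from 18 to 29. The replicate block changed no call beyond those given beside the results. Apoc3 in EC-SP reversed to -1.31 with the mean of its probes. The filters change which genes are tested and leaving out an array leaves fewer samples; the cause of the other changes was not tested. The slide as a block is the same fit as the replicate block, since same-numbered arrays shared a slide. Genes near background, such as Apoh, Hpx, Hgd and Cyp2c29, have compressed differences with normexp (Cyp2c29 -0.36 in CD157+CD200+, adjusted p = 0.174).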
